A study of Gallus gallus with 4 samples.

Results

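The genes examined here code for the core splicing factors and the heterogeneous nuclear ribonucleoproteins (hnRNPs) of the chick chorioallantoic membrane (CAM), the vascularised membrane that lines the eggshell and exchanges gas for the embryo. They were taken by name: every gene whose symbol on the array begins with HNRNP, SRSF, SNRP, SF3A, SF3B or U2AF. The rule found 42 of the 13008 genes that the array's annotation names, with 13 HNRNP, 11 SRSF, 10 SNRP, 7 SF3A or SF3B genes and 1 U2AF gene. These genes are covered by 112 probe sets, and each gene is given at its brightest one, the probe set of highest mean signal over the 4 arrays, unless another is named.

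Affymetrix chicken arrays were hybridised with RNA from 3 individual CAMs exposed to human recombinant VEGF-A and from 1 pool of 3 normal CAMs. VEGF-A, the growth factor that drives blood vessel sprouting, had been dried as 3 µg on a Thermanox plastic disc and laid on the membrane at embryonic day 13. The tissue under the disc was cut out 24 h later, at day 14, and the VEGF-A CAMs were chosen for visible new capillaries. The control CAMs are called normal by the submitters, were of the same day, and are described in the study's text as having received solvent; embryo sex is not given for any CAM. Each array holds the whole membrane, so that fewer cells of a type and less RNA per cell cannot be told apart.

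Splicing removes introns from the primary transcript. The SNRP genes code for proteins of the small nuclear ribonucleoproteins (snRNPs), the particles that assemble into the spliceosome; U2AF marks the end of the intron and helps to bring in the U2 particle, which carries the SF3A and SF3B complexes at the branch point. SR proteins, the products of the SRSF genes, mostly favour the use of an exon by binding within it, whereas hnRNPs coat nascent transcripts and often oppose exon use. All are made in most cells, and many SR protein and hnRNP genes tune their own level through exons that send the transcript to decay.

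One of these genes served the study as its yardstick. HNRNPH1, an hnRNP that binds runs of G and was listed under its older symbol HNRPH1, was the gene to which quantitative PCR of the kinesins and VEGF receptors was normalised. Its expression, the study states, was alike in control and VEGF-A CAMs on the arrays and unchanged as the normal CAM develops. Its 2 primers are shown because every PCR ratio of the study rests on the product they amplify, in the order forward and reverse, each 5′ to 3′ in lower case; they have 20 bases each, of which 10 and 11 are G or C.
HNRPH1 forward: gatttcggtcttggtgttcg
HNRPH1 reverse: taactcgtggcagacacagc
HNRNPH1 lies on chromosome 13 of the RefSeq annotation. The primers were not placed on its transcript, so which of the probe sets described next covers the amplified stretch was not examined.

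The brightest HNRNPH1 probe set gave signals of 3070, 3467 and 3312 in VEGF-A CAMs 1, 2 and 3, against 2986 in the control pool. All 3 VEGF-A CAMs lay above the pool, CAM 1 by the least. The log2 ratios to the pool were 0.04, 0.22 and 0.15, with a mean of 0.14 (limma SE 0.25, adjusted p = 0.91). Few genes of the array kept so close to the control pool. The largest distance of any CAM, 0.22 on the log2 scale, was matched or undercut by 3 of 41 splicing genes, HNRNPH1 included, and by 525 of 10505 genes. Most of the 10505 are dimmer, HNRNPH1 being at the 97.5th percentile of their signal. Genes of like brightness were not compared separately. Among 13 other genes commonly used as references, 3 had a smaller largest distance, and the 13 had a median mean log2 ratio of -0.09 with none called higher or lower.

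The other HNRNPH1 probe sets did not all give the same picture. The second read 1580, 1539 and 1278 in the VEGF-A CAMs, against 1343 in the pool, with CAM 3 below the pool and the others above it. The third and dimmest read 52.9, 79.4 and 51.2 in the VEGF-A CAMs, against 170 in the pool, so that every VEGF-A CAM was more than 2-fold lower. Its mean log2 ratio was -1.51 (adjusted p = 0.68 by limma). Which transcript form this probe set reads was not examined. Set against the brightest probe set, the mean kinesin ratios were lower by its 0.14. The mean log2 ratio of KIF11, a mitotic spindle motor, was 1.31 to the control pool and 1.17 after that subtraction. For KIF20A, a motor of the central spindle, the 2 values were 1.86 and 1.73. Set against the third probe set, at -1.51, the kinesin ratios would instead be higher, so the correction depends on the probe set taken.

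**Figure D1:**
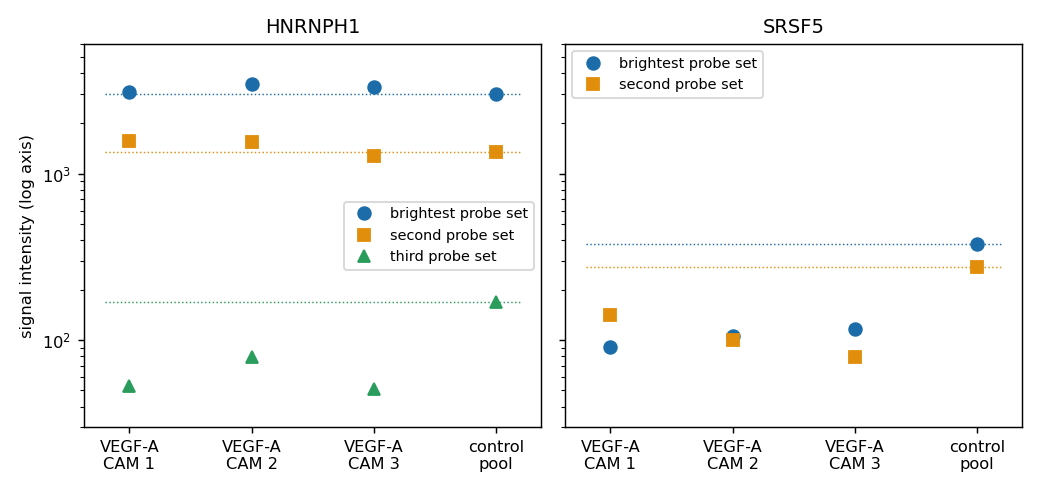
Signal intensity (log axis) of each probe set above the signal filter for HNRNPH1 (left) and SRSF5 (right) on the 4 arrays, with a dotted line at each probe set's control pool value. The brightest HNRNPH1 probe set stayed between 2986 and 3467 on all arrays and the third was lower in each VEGF-A CAM, while both SRSF5 probe sets were lower in each VEGF-A CAM than in the pool.

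For the comparison of VEGF-A CAMs with the control pool, probe sets under a mean signal of 11.1 were left out, which kept 41 of the 42 genes. SNRPF, a protein of the Sm ring that encircles snRNP RNA, was the one below it, with signals of 0.810, 27.7 and 1.02 in the VEGF-A CAMs, against 6.86 in the pool. A gene was called when more than 2-fold away from the pool in the same direction in at least 2 of the 3 comparisons, which is the fold part of the rule in the study's methods; these also ask for a present call where a gene is higher, and here the signal filter took its place. None of the 41 splicing genes was called higher, against 5.37% of all 10505 genes, and 3 were called lower (7.32%), against 6.03% of all genes. The 3 were HNRNPKL, SRSF5 and SRSF4. Called genes are rarer among bright ones, and the splicing genes are bright: their median signal was 1001.5, against 111 over all genes. Of the 34 splicing genes with a mean signal of at least 200, none was called higher and 1, HNRNPKL, was called lower, against 3.02% and 1.4% of the 4007 genes of that brightness.

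Most of these genes stayed near the control level. In all 3 VEGF-A CAMs, 36 of 41 lay within 2-fold of the pool (87.8%), as did 69.5% of all genes. Among genes with a signal of at least 200, 32 of 34 splicing genes did (94.1%), beside 86.7% of all 4007. The mean log2 ratio was above 0 for 22 of the 41. Over all genes it was above 0 for 4724 of 10505, and for 1994 of the 4007 with a signal of at least 200. These counts are the background for the family counts below. The median of the splicing genes was 0.07, against -0.07 over all genes. Scaling the arrays to HNRNPH1 lowers the mean log2 ratio of every gene by the same amount. It took the median of the splicing genes to -0.0689 and that of all probe sets above the filter from -0.11 to -0.25. The quartiles of the splicing genes were -0.25 and 0.19, those of all genes -0.43 and 0.29. All 3 VEGF-A CAMs were above the pool for 10 genes (24.4%), against 24.6% of all genes, and all 3 were below it for 12 (29.3%), against 29.8% of all genes. Both shares were at the background. The limma test across all probe sets gave none of the splicing genes an adjusted p under 0.05 (0.65 to 0.98). At an unadjusted p under 0.05 there were 2, SNRPN on the higher side and SRSF5 on the lower. Over all 10505 genes, 418 were so on the higher side and 222 on the lower. The spread behind these p-values comes from the VEGF-A CAMs, since the lone pool has none of its own. For each probe set limma drew it toward that of probe sets of like signal, with 5.226 prior against 2 residual degrees of freedom. An exact permutation of 3 arrays against 1 cannot go below 0.25.

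**Figure D2:**
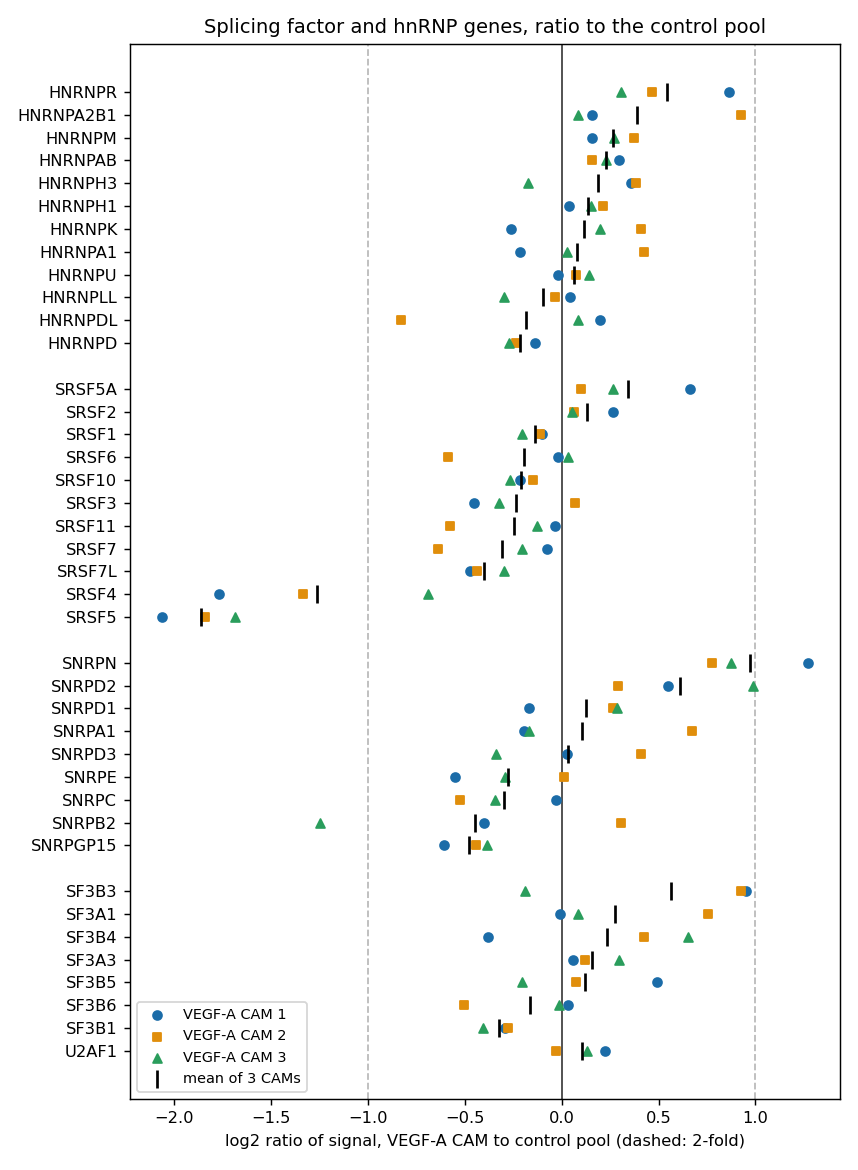
Log2 ratio, to the pool, of the signal in each VEGF-A CAM for 40 of the 41 splicing factor and hnRNP genes above the signal filter (HNRNPKL, at -0.35, -5.07 and -7.80, is left out), in the order HNRNP, SRSF, SNRP, and SF3A, SF3B and U2AF, with the mean of the 3 CAMs as a bar and dashed lines at 2-fold. Most points lie within 2-fold of the pool; SRSF5 and SRSF4 stand apart on the low side.

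Markers of single cell types did differ between these arrays. Of 14 blood endothelial markers, 12 were called higher and none lower (summed signal 11142, 5864 and 11528 in the VEGF-A CAMs, against 4441 in the pool), and of 10 markers of dividing cells 9 were called higher and none lower (7848, 7322 and 6111, against 2698). Of 7 epithelial markers, none was called higher and 1 lower (34468, 52491 and 42269, against 47270). Of 10 fibroblast and smooth muscle markers, 1 was called higher and 1 lower (34778, 47934 and 42585, against 25942). Red blood cell markers gave 2 higher and 1 lower of 6 (24059, 38180 and 31733, against 27215), and macrophage and heterophil markers none of 9 (1984, 2729 and 4100, against 3812). No marker was at 0 on any array. The summed signal of the splicing genes was 51271, 55606 and 50158 in the VEGF-A CAMs, against 52953 in the pool. The control transcripts' ratio of 3′ to 5′ signal, a sign of RNA length, was lower in each VEGF-A CAM than in the pool for actin (15.5, 19.7 and 22.9, against 24.2). It ran likewise for EF1A (5.74, 6.65 and 7.38, against 8.74). For GAPDH, CAM 3 was level with the pool (43.2, 58.0 and 66.9, against 67.0). The 3′ signal was thus far above the 5′ signal on every array, from 5.74-fold for EF1A in CAM 1 to 67.0-fold for GAPDH in the pool. The part of these differences in the results for the splicing genes was not tested.

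Among hnRNP genes, 9 of 13 had a mean above the control pool, with a median log2 ratio of 0.12 that turned to -0.0181 with HNRNPH1 scaling, and none but HNRNPKL was called. All 3 VEGF-A CAMs were above the pool for 5 of them (38.5%), beside 24.6% of all genes, and below it for 2, beside 29.8%. HNRNPR, a relative of SYNCRIP that binds RNA in the nucleus and cytoplasm, had the largest mean, with 1290, 982 and 878 in the VEGF-A CAMs, against 710 in the pool. CAM 1 was the highest, and all 3 lay above the pool, by a mean log2 ratio of 0.55 ± 0.29 (SD, n = 3; adjusted p = 0.85 by limma). HNRNPM, an hnRNP that binds GU-rich RNA, gave 3236, 3768 and 3500 in the VEGF-A CAMs, against 2906 in the pool. Its mean log2 ratio was 0.27 ± 0.11, with every CAM above the pool (adjusted p = 0.87 by limma), while a second probe set had CAM 2 below it (1490, 802 and 1354, against 1137). HNRNPAB lay above the pool in all 3 CAMs too, with a mean log2 ratio of 0.23. Of its 4 probe sets above the filter, 3 had a mean above the pool. The dimmest lay below the pool in every CAM (17.5, 0.820 and 19.0, against 26.8).

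HNRNPA1 and HNRNPA2B1 are paired proteins that bind silencer elements in exons and introns. HNRNPA2B1 read 1203, 2054 and 1146 in the VEGF-A CAMs, against 1080 in the pool. CAM 2 alone was far above the pool, and the mean log2 ratio was 0.39 ± 0.47 (adjusted p = 0.87 by limma). Of its other probe sets one followed, with CAM 2 highest (115, 266 and 172, against 118), and the remaining pair lay below the pool in all 3 CAMs (282, 185 and 183, against 350 for the brighter of them). HNRNPA1 gave 2020, 3146 and 2394 in the VEGF-A CAMs, against 2347 in the pool, again with CAM 2 highest. All 4 of its probe sets above the filter had a mean above the pool, between 0.08 and 0.83 on the log2 scale, the largest at a probe set with 1291, 988 and 929 in the VEGF-A CAMs, against 595 in the pool.

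The remaining hnRNP genes were close to the control level at their brightest probe sets. HNRNPU, which attaches chromatin to the nuclear scaffold, was within 0.14 of it on the log2 scale in every CAM. HNRNPD (also AUF1, which binds AU-rich messages) lay below it in all 3 CAMs, with a mean log2 ratio of -0.21, and its second, dimmer probe set was called lower (246, 75.2 and 103, against 284; mean log2 ratio -1.19). Its sequence relative HNRNPDL was low in CAM 2 alone (575, 283 and 531, against 501), but a second, dimmer probe set was highest there (72.2, 158 and 62.2, against 69.4). HNRNPH3 was above the pool in CAMs 1 and 2 and below it in CAM 3, with a mean log2 ratio of 0.19. HNRNPLL, a relative of HNRNPL, had a mean of -0.10 at its brightest probe set, and between -1.01 and 2.84 at its 5 probe sets above the filter. The high value belongs to a dim probe set with 21.4, 22.1 and 15.1 in the VEGF-A CAMs, against 2.69 in the pool. That probe set passed the signal filter through the VEGF-A CAMs, its pool signal being under it.

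HNRNPKL was unlike the rest. It is the copy of HNRNPK carried by chromosome W, which only female birds have, whereas HNRNPK itself lies on chromosome Z; HNRNPK binds C-rich RNA and DNA. HNRNPKL read 409, 15.6 and 2.34 in VEGF-A CAMs 1, 2 and 3, against 522 in the control pool. CAM 1 was near the pool and CAMs 2 and 3 were far below it, with log2 ratios of -0.35, -5.07 and -7.80 and a mean of -4.41 ± 3.77 (SD, n = 3; limma SE 2.32, adjusted p = 0.85). At its other probe sets above the filter CAMs 2 and 3 were again far below CAM 1 and below the pool, but CAM 1 lay above the pool. They read 178, 0.583 and 0.277 against 28.0 in the pool, and 107, 15.7 and 6.69 against 55.9.

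The split was shared by the genes of chromosome W. Of 14 such genes above the filter, 10 were more than 2-fold lower in CAMs 2 and 3 than in both CAM 1 and the pool, HNRNPKL among them, whereas over all 10505 genes 76 had this pattern. HINTW, a W-linked gene used to sex birds, read 5176, 5.61 and 4.54 in the VEGF-A CAMs, against 3059 in the pool. HNRNPK gave 842, 1339 and 1157 in the VEGF-A CAMs, against 1008 in the pool, thus below the pool in CAM 1 and above it in CAMs 2 and 3. Its log2 ratios were -0.26, 0.41 and 0.20, beside medians of -0.29, 0.04 and 0.01 over 496 genes of chromosome Z. The call of HNRNPKL as lower therefore rests on the 2 CAMs in which chromosome W genes as a whole were low. Without it, 2 of 40 splicing genes were called lower and the median log2 ratio was 0.07.

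**Figure D3:**
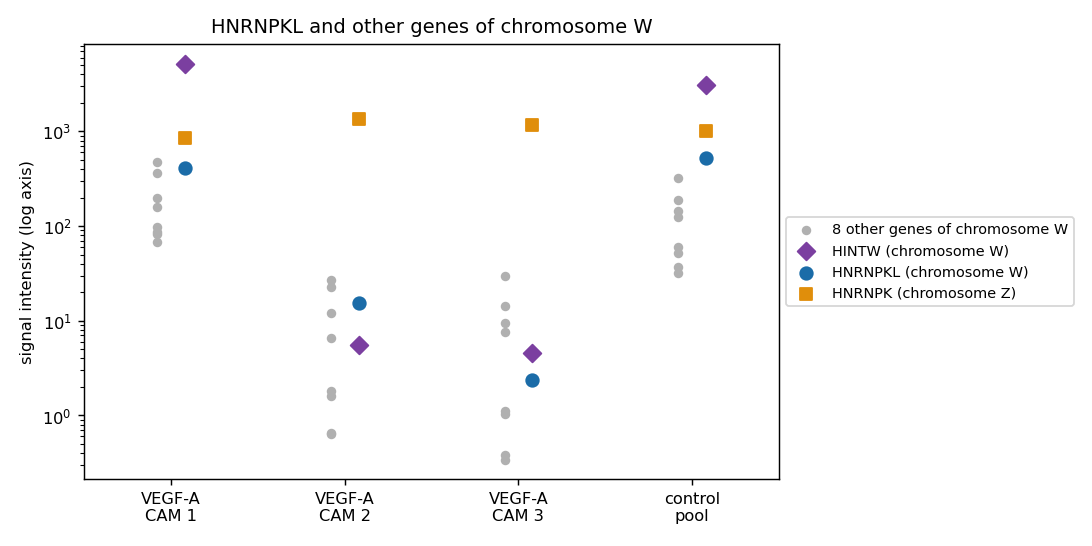
Signal intensity (log axis) on the 4 arrays of HNRNPKL, HINTW and the 8 other genes of chromosome W that were more than 2-fold lower in VEGF-A CAMs 2 and 3 than on both other arrays, with HNRNPK of chromosome Z. The W genes are high in VEGF-A CAM 1 and the control pool and low in CAMs 2 and 3, while HNRNPK lies between 842 and 1339 throughout.

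SR protein genes were mostly below the control pool on the deposited scale, with a median log2 ratio of -0.23 (-0.10, -0.43 and -0.21 in CAMs 1, 2 and 3). Median centring took it to 0.0200, and the median of all probe sets above the filter from -0.11 to 0.14. Of 11, 9 had a mean below the pool, 2 were called lower, beside 6.03% of all genes, and none higher, beside 5.37%. All 3 VEGF-A CAMs were below the pool for 7 of them (63.6%), beside 29.8% of all genes. SRSF5 stood out. This SR protein, known as HRS from regenerating rat liver, read 90.6, 106 and 118 in the VEGF-A CAMs, against 378 in the pool. The 3 CAMs lay close together and far below the pool, by a mean log2 ratio of -1.86 ± 0.19 (SD, n = 3; limma SE 0.34, unadjusted p = 0.000908, adjusted p = 0.65). A second probe set gave 142, 101 and 79.8 in the VEGF-A CAMs, against 275 in the pool, and was also called lower. The third, under the signal filter, was lower in every CAM as well (3.79, 10.4 and 6.30, against 18.7).

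A second gene of this name, SRSF5A, also on chromosome 5, ran the other way. It gave 1306, 885 and 992 in the VEGF-A CAMs, against 824 in the pool, all above it and CAM 1 the most, with a mean log2 ratio of 0.34 ± 0.29 (adjusted p = 0.87 by limma). Its second probe set above the filter had a mean of 0.45. SRSF5 and SRSF5A are related genes, and probe sets marked _s, such as the one for SRSF5A, can read more than one transcript; whether signal passes between the pair was not tested. SRSF4, a long SR protein, was the other gene called lower, at a dim probe set with 13.02, 17.6 and 27.4 in the VEGF-A CAMs, against 44.3 in the pool. Its mean log2 ratio was -1.26 ± 0.54, and CAM 3 was less than 2-fold away (adjusted p = 0.84 by limma).

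The bright SR protein genes differed little from the pool. SRSF3, the smallest SR protein, read 4376, 6285 and 4796 in the VEGF-A CAMs, against 5989 in the pool, with CAM 2 above it and the others below (mean log2 ratio -0.23 ± 0.27, adjusted p = 0.87 by limma). Its 2 dim probe sets disagreed, one being higher in every VEGF-A CAM (75.9, 139 and 67.7, against 31.2) and one lower in every one (15.8, 7.41 and 11.8, against 41.1). SRSF6 gave 2476, 1673 and 2570 in the VEGF-A CAMs, against 2512 in the pool, and only CAM 2 was apart. SRSF7L, listed like SRSF7 on chromosome 3, read 2015, 2066 and 2269 in the VEGF-A CAMs, against 2792 in the pool. All 3 were below the pool by similar amounts, with a mean log2 ratio of -0.40 ± 0.09 (adjusted p = 0.86 by limma). A second, dimmer SRSF7L probe set stayed near the pool (107, 86.8 and 99.7, against 101), with CAM 1 above it and a mean of -0.05. At its brightest probe set, SRSF7 itself had -0.31, SRSF11 -0.25, SRSF10 -0.21 and SRSF1, the founding member of the family, -0.14, each with every CAM below the pool. The other SRSF10 probe sets lay between -0.84 and 0.32. SRSF2, which works within nuclear speckles, was above it in every CAM, with a mean log2 ratio of 0.13.

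The snRNP protein genes were divided, 5 of 9 above the pool and 4 below, with no calls and a median log2 ratio of 0.03 that turned to -0.10 with HNRNPH1 scaling. SNRPN had the largest mean of all the splicing genes. It codes for an Sm protein closely related to SmB, and the RefSeq annotation lists SNRPB among the synonyms of the chicken gene. Its signals were 521, 370 and 395 in the VEGF-A CAMs, against 216 in the pool, all above it with CAM 1 the most. The mean log2 ratio was 0.97 ± 0.26 (SD, n = 3; limma SE 0.34, unadjusted p = 0.0234, adjusted p = 0.71), and 1 CAM passed 2-fold, 1 fewer than the rule asks for. SNRPD2, another protein of the Sm ring, read 65.6, 54.7 and 89.0 in the VEGF-A CAMs, against 44.8 in the pool, all above it, by a mean log2 ratio of 0.61 ± 0.35 (adjusted p = 0.86 by limma).

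The other Sm proteins lay closer to the pool or below it. SNRPGP15, for which the annotation gives the synonym SNRPG, read 155, 173 and 180 in the VEGF-A CAMs, against 235 in the pool, all below it (mean log2 ratio -0.48 ± 0.11, adjusted p = 0.86 by limma), and its other probe sets above the filter were below it too. SNRPD3 gave 1875, 2447 and 1457 in the VEGF-A CAMs, against 1842 in the pool, and SNRPE 892, 1314 and 1063, against 1304. Both overlapped the pool at these brightest probe sets. A second SNRPD3 probe set was below the pool in every CAM (471, 425 and 456, against 513). A second, dim SNRPE probe set was called lower (7.98, 28.0 and 11.4, against 23.4). SNRPD1 had a mean log2 ratio of 0.13 and overlapped it as well. Of the proteins particular to one snRNP, SNRPB2 of the U2 particle was dim and scattered (13.9, 22.6 and 7.72, against 18.3), its partner SNRPA1 was high in CAM 2 alone (217, 397 and 222, against 249), and SNRPC of the U1 particle was below the pool in every CAM, with a mean log2 ratio of -0.30.

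The SF3A, SF3B and U2AF genes had a median log2 ratio of 0.14, with 6 of 8 means above the pool and no calls. SF3B1, the large subunit that clasps the branch point, read 2400, 2427 and 2219 in the VEGF-A CAMs, against 2936 in the pool, all below it by a mean log2 ratio of -0.32 ± 0.07 (adjusted p = 0.86 by limma). SF3B3 of the same complex read 785 and 771 in CAMs 1 and 2 and 356 in CAM 3, against 406 in the pool. Its mean log2 ratio was 0.56 ± 0.65, and the second probe set gave the same order, 65.6, 61.3 and 37.3 against 37.3, but the third had CAM 2 lowest and below the pool (51.6, 13.8 and 41.6, against 24.5). SF3A1, a subunit of the partner complex, was high in CAM 2 alone at its brightest probe set (1514, 2573 and 1618, against 1524). At its second one all 3 CAMs were above the pool, CAM 2 again the most (890, 1224 and 920, against 657). SF3B4 was below the pool in CAM 1 and above it in CAMs 2 and 3, with a mean of 0.23, SF3A3 was above it in every CAM with a mean of 0.16 but below it in every CAM at a second, nearly as bright probe set (mean -0.15), and the small subunits SF3B5 and SF3B6 had means of 0.12 and -0.16. U2AF1, the small U2AF subunit that reads the last bases of the intron, gave 1149, 962 and 1075 in the VEGF-A CAMs, against 983 in the pool, with a mean log2 ratio of 0.11 ± 0.13 and CAM 2 just below the pool.

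Some genes stood apart in a single CAM. CAM 2 stood more than 0.4 log2 units away from both other CAMs for 9 of the 41 genes, above them for SF3A1, HNRNPA2B1, SNRPA1 and SNRPB2 and below them for HNRNPDL, SRSF7, SRSF11, SRSF6 and SF3B6. CAM 1 did so for 6 genes and CAM 3 for 6. Over the 4007 genes with a signal of at least 200, the shares were 15.3% for CAM 1, 22.3% for CAM 2 and 8.83% for CAM 3, and over the 34 splicing genes of that brightness they were 11.8%, 23.5% and 8.82%, all near the background. CAM 2 was also the VEGF-A CAM with the lowest summed endothelial and the highest summed epithelial signal. The CAMs lay closest together for SRSF1, SRSF10, HNRNPAB, HNRNPD and SF3B1, with SDs of 0.06 to 0.07 between CAMs.

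Probe sets of one gene did not always match, and calls lay mostly at dim ones. Of the 29 splicing genes with at least 2 probe sets above the filter, 15 had means of one sign at all of them and 14 did not. Of 57 probe sets with a mean signal of at least 200, 1 was called (1.75%), the brightest of HNRNPKL, and of 38 dimmer ones 13 were (34.2%, 10 lower and 3 higher), beside 5.08% and 19.7% of all probe sets in these ranges. The dim SRSF4, SRSF3, HNRNPH1 and HNRNPLL values given above belong to the second kind, and SRSF5, with a mean signal of 173, lies just under the boundary. With only probe sets without a suffix mark, HNRNPD, HNRNPH1, SNRPE and SNRPGP15 were called lower too, at mean signals of 177, 88.4, 17.7 and 26.3. The share of all genes called with that choice was not counted.

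**Figure D4:**
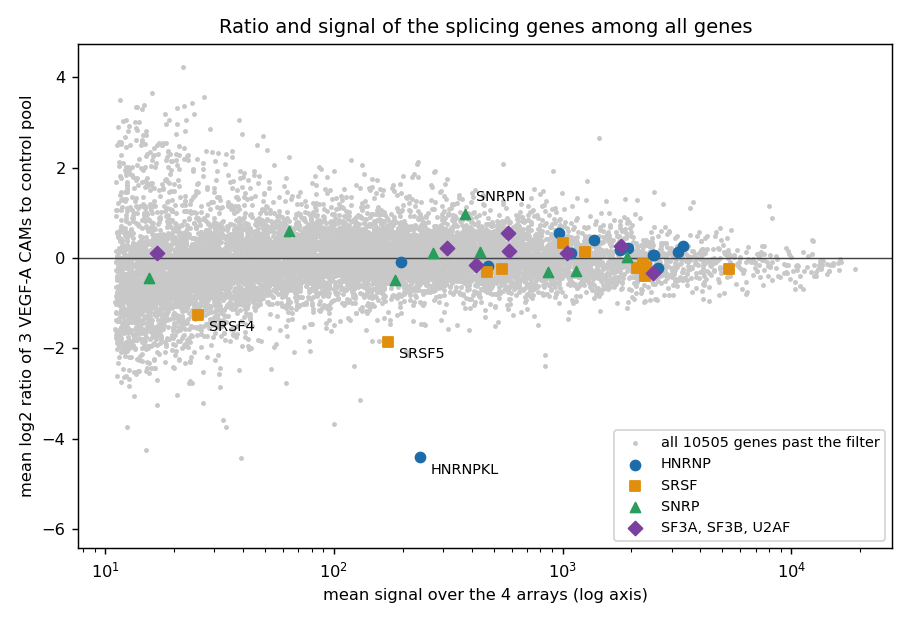
Mean log2 ratio of the 3 VEGF-A CAMs to the control pool against mean signal over the 4 arrays (log axis), with all 10505 genes in grey and the 41 splicing factor and hnRNP genes in colour by family. Most of the splicing genes lie at high signal and near 0; HNRNPKL, SRSF5 and SRSF4 lie low, and SNRPN highest among them.

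Other genes of the splicing pathway were also mostly close to the pool. Of 124 above the filter, taken from lists of the remaining snRNP and tri-snRNP proteins, the PRP19 complex, the exon junction complex, SR protein kinases and relatives, hnRNPs under other names and splicing regulators, 4 were called higher, beside 5.37% of all genes, and 3 lower, beside 6.03%. The median log2 ratio was 0.03, and -0.10 with HNRNPH1 scaling. Of the genes called higher, PCBP2 and RBFOX1 passed the signal filter only through VEGF-A CAMs, as given below. The PRP19 complex and catalytic step (24 genes) and the exon junction complex and export factors (13 genes) had no calls, with medians of -0.03 and 0.04. SR protein kinases and SR-related proteins (20 genes) had a median of -0.12 and 1 call, LUC7L3, a U1-associated protein, with 386, 122 and 214 in the VEGF-A CAMs, against 495 in the pool. CAM 1 was less than 2-fold away (mean log2 ratio -1.197, adjusted p = 0.85 by limma). TRA2B, an SR-like activator of exons, was not called, at 918, 916 and 723 against 1423, all below the pool (-0.75, adjusted p = 0.77 by limma). The kinases that phosphorylate SR proteins were mixed, SRPK1 having a mean log2 ratio of 0.42 and CLK1 of -0.64.

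Of 40 splicing regulators, SFPQ was called lower and RBFOX1, dim, higher. SFPQ, a paraspeckle protein, read 563, 377 and 416 in the VEGF-A CAMs, against 964 in the pool. All 3 were well below the pool (mean log2 ratio -1.12, limma SE 0.34, adjusted p = 0.69), but with probe sets that carry no suffix mark its mean was 0.47. Of 22 snRNP and tri-snRNP proteins, LSM4 was called lower (60.6, 68.4 and 41.1, against 151) and LSM5 higher (48.7, 34.2 and 40.1, against 18.3), although both belong to the same Lsm ring, and SNRNP40 of the U5 particle was called higher (416, 222 and 375, against 183). PTBP1, the hnRNP that binds pyrimidine tracts, was above the pool in every CAM without a call (2022, 1338 and 1737, against 1177), and PCBP2 was called higher at a dim probe set (16.02, 9.05 and 19.6, against 2.46). RBFOX1 read 3.15, 27.5 and 15.2, against 3.87. The mean signals of PCBP2 and RBFOX1, 11.8 and 12.4, passed the filter of 11.1 only through VEGF-A CAMs in which they were high. Their pool signals lay under it, so the filter itself favoured a higher call for both.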

How the data were processed

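RNA of 3 VEGF-A CAMs and 1 pool of 3 normal CAMs was hybridised to 4 Affymetrix chicken arrays. The values deposited by the authors are linear signal intensities, 1 for each probe set on an array, made with GCOS 1.2 per the submitters' processing notes; the values were used without further scaling, and detection calls were not used. Of 38535 probe sets 37693 were chicken, and 22616 above the 40th percentile of mean signal (11.1) were tested on log2 intensity with limma 3.58.1 in R 4.3.3 (eBayes with trend, Benjamini-Hochberg over all of them). The lone control array was assumed to vary like the VEGF-A arrays, with 2 residual degrees of freedom. The smallest adjusted p of any probe set was 0.0986, so limma called 0 probe sets at 0.05, while 872 had an unadjusted p under 0.05 and a higher mean and 546 one and a lower mean. The test was checked on simulated data in which the control array varied like the VEGF-A arrays, so the check could not test that assumption.

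Probe sets were named from the platform annotation (27166 with 1 symbol, 177 with several, which were left out), and all 42 genes were matched to RefSeq (GRCg7b) for synonyms and chromosome. The members, lists and named genes were chosen with earlier results of these data known. Named were HNRNPH1 at all probe sets, the genes called, the 6 largest and 6 smallest mean ratios, the 2 brightest genes per family, and up to 3 called genes per pathway list; other genes were named after their values were seen, to account for every member. Whether the arrays were run in one batch is not given in the sources used here. The number of arrays limits the precision.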

Additional observations from a re-analysis of the deposited data

How the results depend on the processing

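Scaling set the centre of the ratios: the median log2 ratio of all probe sets above the filter was -0.11 as deposited, -0.04 after quantile normalization, 0.14 after median centring and -0.25 after scaling to HNRNPH1, and the share of calls that were higher was 42.3%, 55.7%, 66.6% and 30.8%. With median centring the median of the splicing genes was 0.32, of hnRNP genes 0.37, of SR protein genes 0.0200, of SF3A, SF3B and U2AF genes 0.39 and of the other splicing genes 0.29. With it 2 of 41 splicing genes were called higher, beside 2418 of all 22616 probe sets above the filter. With HNRNPH1 scaling the medians were -0.0689 (splicing genes), -0.0181 (hnRNP), -0.10 (snRNP proteins), 0.00485 (SF3A, SF3B and U2AF) and -0.10 (other splicing genes). Relative to the deposited scale, the sign turned for the medians of the splicing, hnRNP, snRNP protein and other splicing genes with HNRNPH1 scaling and of the SR protein genes with median centring. The snRNP protein median of 0.03 also became -0.12 with no filter, -0.18 with averaged probe sets and -0.18 without CAM 2.

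Averaging all probe sets of a gene gave a median of -0.0776 for the splicing genes and -0.42 for HNRNPH1. Taking only probe sets without a suffix mark gave -1.51 for HNRNPH1 and 7 splicing genes called lower, not 3, the added ones at dim probe sets. Leaving out each CAM in turn gave 1 to 2 splicing genes called lower (1 without CAM 2) and 0.0939 to 0.140 for the SF3A, SF3B and U2AF median. With a CAM left out, both remaining comparisons had to pass 2-fold, here and for the probe set counts below. Under this stricter rule a count of calls could not exceed the one with all 3 CAMs. Without HNRNPKL, an alternative added after the data were seen, 2 were called lower.

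Over all probe sets, 1535 were called higher and 2092 lower, against 2418 and 1213 with median centring, 245 and 232 with an offset of 32 before the logarithm, 4565 and 6804 with no filter, and 703 and 730 with a filter at the 60th percentile; leaving out a CAM gave 886 to 1027 and 915 to 1047, and 0 to 1 limma call on the lower side.

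Settings that change only the filter or the limma trend leave a gene's ratio as it is. So do averaging or choosing probe sets for a gene with 1 above the filter. Such values could not turn, and they are counted in what follows. Of 359 values of 28 named genes under the alternatives, 348 kept their direction. The 11 others were HNRNPA2B1 at -0.0551 with averaged probe sets; SNRPD3 at -0.10 with HNRNPH1 scaling, -0.0776 averaged and -0.16 without CAM 2 (0.22 without CAM 3); SRSF3 at 0.0200 and SRSF6 at 0.0632 with median centring, SRSF6 at 0.00619 without CAM 2 (-0.30 without CAM 3); U2AF1 at -0.0273 with HNRNPH1 scaling; SFPQ at 0.47 with unmarked probe sets; and HNRNPH1 as given above. Median centring and HNRNPH1 scaling move the mean log2 ratio of every gene by the same amount, and the values named for them turned by that shift. Why probe sets or CAMs differed for the others was not tested. SRSF5, SRSF4, HNRNPKL and SNRPN kept their direction under every alternative that gave them a value, but these could hardly turn them. Their deposited mean log2 ratios were -1.86, -1.26, -4.41 and 0.97. Rescaling moved the median of all probe sets above the filter only from -0.11 to between -0.25 and 0.14. For each gene every CAM lay on the same side of the pool, so leaving out a CAM could not turn it. SRSF4 and SNRPN had 1 probe set above the filter, and SRSF4 did not pass the stricter filter. No paired analysis was possible because the control is a single pool. No adjusted p passed 0.05 for a named gene (0.229 to 0.999).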
